A study of Arabidopsis thaliana with 12 samples.

Results

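FLC (AT5G10140) and its 5 relatives MAF1 (AT1G77080, also called FLM), MAF2 (AT5G65050), MAF3 (AT5G65060), MAF4 (AT5G65070) and MAF5 (AT5G65080) form one clade of MADS-box transcription factor genes of Arabidopsis thaliana. They are described here together with SVP (AT2G22540), a MADS-box gene of another clade whose protein pairs with members of the FLC clade. These 7 genes were picked by name, out of 33602 genes in the expression table, and all 7 were found. All 7 also reached the minimum used for testing, which asked for 3 of the 12 libraries to have an FPKM of 1 or more. FPKM is the number of sequenced fragments divided by exon length and library size, so levels can be set side by side between genes, within limits given below.

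RNA was sequenced from whole seedlings of the Col-0 ecotype at 10 days after germination, with 3 independent biological replicates per genotype. The 3 mutants were clf28swn7, which lacks function of CLF and SWN, emf1-2, a mutant of EMF1, and ring1ab, a double mutant of RING1A and RING1B. They were compared with wild type (WT), which has the Col-0 background that all the mutants share. All plants grew in long days of 16 h light and 8 h dark at 22 °C, and no plant was described as having had a cold treatment.

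The proteins of this group repress flowering. FLC binds and represses the floral integrators FT and SOC1, SVP does so alone or as a partner of FLC and MAF proteins, and the MAF proteins delay flowering in cool conditions or after insufficient cold. Col-0 carries a defective allele of FRI, the main activator of FLC, and therefore starts with little FLC RNA. FLC is also a textbook target of Polycomb repression. CLF and SWN are the catalytic subunits of Polycomb Repressive Complex 2, which methylates histone H3 on lysine 27, RING1A and RING1B are subunits of Polycomb Repressive Complex 1, which ubiquitinates histone H2A, and EMF1 is a plant-specific Polycomb protein. The comparisons ask how each repressor gene is expressed when one of these activities is impaired.

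The estimated depth per library was 14200000 to 15000000 fragments in clf28swn7, 19000000 to 20300000 in emf1-2, 18900000 to 21700000 in ring1ab and 18500000 to 20300000 in WT. CLF fell to 0.301 FPKM and SWN to 3.59 FPKM in clf28swn7, against 8.90 and 16.4 FPKM in WT. RING1B fell to 0.554 FPKM in the libraries labelled ring1ab, against 7.07 FPKM in WT, but RING1A stood at 188 FPKM there, against 4.75 FPKM in WT. The study describes ring1ab as a weak knockdown mutant. An RNA level alone does not show whether a gene still works, so the RING1A level neither bears out nor contradicts the label. These libraries are called the libraries labelled ring1ab. EMF1 was at 54.0 FPKM in clf28swn7 and 50.2 FPKM in emf1-2, against 8.05 FPKM in WT. EMF1 RNA was thus raised in both of these mutants, and its level does not test the emf1-2 label either. Here emf1-2 always stands for the libraries labelled emf1-2. Cell type markers differed widely. Summed over 5 genes each, the green shoot markers were at 4195 to 5108 FPKM in clf28swn7, 3642 to 4753 in emf1-2 and 20033 to 24999 in the libraries labelled ring1ab, against 27262 to 30171 in WT. Root markers were at 23.7 to 32.5, 7.47 to 17.7 and 107 to 131 FPKM in the same mutants, against 106 to 129 in WT. Seed and embryo markers reached 28378 to 30100, 252 to 643 and 10231 to 18095 FPKM, against 1.51 to 9.21 in WT. Floral organ markers reached 359 to 362, 786 to 891 and 17.9 to 21.8 FPKM, against 1.13 to 1.56 in WT, and none of the 20 markers was at 0 in all libraries. In the study, the shoots of clf28swn7 and emf1-2 stayed embryonic, and clf28swn7 also had a stunted root. The study describes a WT-like root in emf1-2 and proposes that its whole-seedling ChIP-seq samples held relatively more root cells than WT. The summed root markers were nevertheless lowest in emf1-2, and the reason was not tested. A level in whole seedlings cannot tell apart fewer cells of a type and less RNA per cell, and the part of tissue make-up in the results below was not tested.

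Of the 7 genes, FLC rose in all 3 mutants, MAF4 and MAF5 rose in the libraries labelled ring1ab, MAF5 also rose in clf28swn7, and SVP fell in clf28swn7 and emf1-2. MAF1, MAF2 and MAF3 passed the thresholds in no mutant. A gene was called where its log2 fold change was at least 1 in size with an unadjusted limma p under 0.05, and Benjamini-Hochberg adjusted p-values over the 21227 tested genes are printed. In clf28swn7 against WT, 2 of the 7 genes were called higher and 1 lower, where 15.1% of all tested genes were called higher and 12.3% lower. In emf1-2 against WT, 1 was called higher and 1 lower, against 13.7% and 12.4% of all tested genes. In the libraries labelled ring1ab against WT, 3 were called higher and 0 lower, against 7.16% and 1.03% of all tested genes. The median log2 fold change of the 7 genes was 0.09, 0.28 and -0.12 in these comparisons, beside 0.07, 0.19 and 0.04 over all tested genes.

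**Figure D1:**
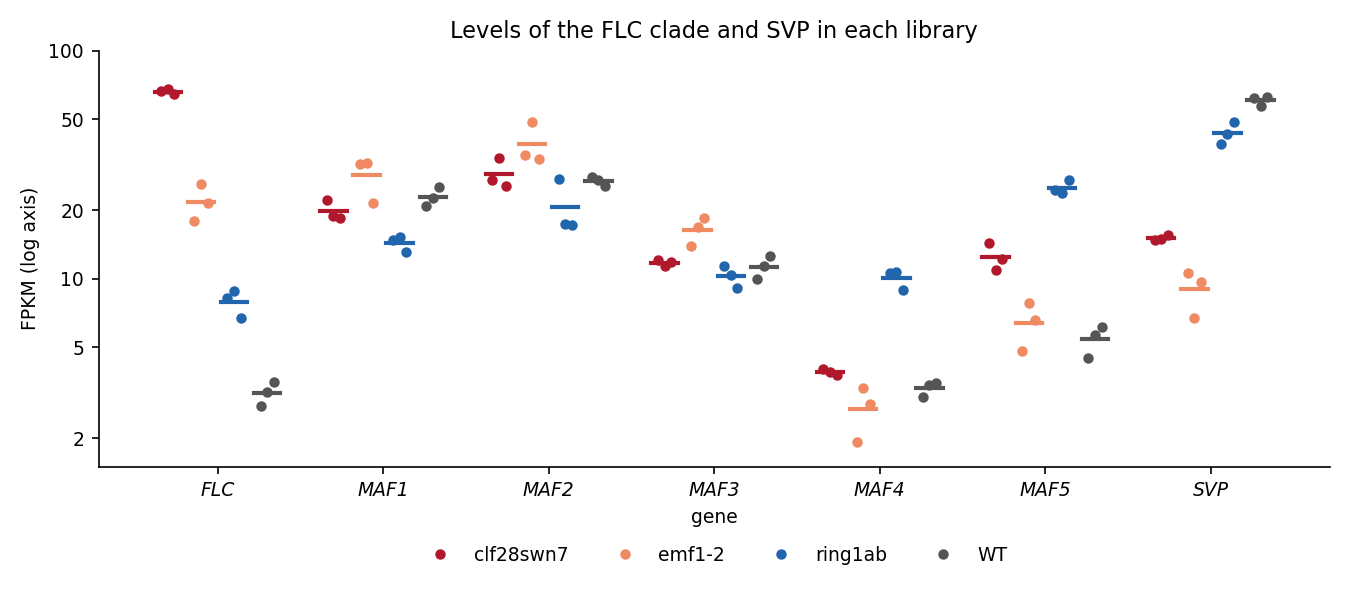
FPKM of the 7 genes in each library on a log axis, with 1 point per library, a bar at the mean of the 3 libraries of a genotype, and genotypes in the order clf28swn7, emf1-2, ring1ab and WT. The 4 genotypes of FLC form separate steps, with all clf28swn7 libraries between 64.5 and 67.7 FPKM and all WT libraries between 2.76 and 3.52 FPKM. The genotypes of MAF2 and MAF3 lie closer together than those of FLC, with emf1-2 wholly above WT and ring1ab in both genes.

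FLC, the central repressor of the cold-dependent pathway, had mean levels that differed more between genotypes than those of the other 6 genes. It lies on chromosome 5 (3173382 to 3179448, minus strand; build TAIR10.1). Its level was 66.5, 67.7 and 64.5 FPKM in the clf28swn7 libraries, 18.0, 26.1 and 21.4 FPKM in emf1-2, 8.21, 8.82 and 6.76 FPKM in the libraries labelled ring1ab, and 2.76, 3.19 and 3.52 FPKM in WT. The genotypes did not overlap, and each step of the order clf28swn7, emf1-2, ring1ab, WT passed its own test. FLC was 21.0-fold higher in clf28swn7 than in WT (log2 fold change 4.02, SE 0.13, adjusted p = 6.85e-10). It was 6.91-fold higher in emf1-2 (2.44, SE 0.13, adjusted p = 3.23e-08) and 2.51-fold higher in the libraries labelled ring1ab (1.10, SE 0.13, adjusted p = 8.62e-05). These fold changes on the log2 scale are those of log2(FPKM + 1), which understates changes of genes with low values. By the estimated depth, the WT level of FLC rests on 54 to 68 fragments per library and the clf28swn7 level on 967 to 1056.

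Compared directly, emf1-2 was lower in FLC than clf28swn7 (log2 difference -1.57, adjusted p = 2.67e-06). The libraries labelled ring1ab were lower than clf28swn7 (-2.92, adjusted p = 1.59e-08) and lower than emf1-2 (-1.34, adjusted p = 4.26e-06). The FLC position carries a limit of its own. A noncoding gene on the opposite strand, AT5G01675, covers 804 of the 1180 exon bases of FLC (68.1%), at the place from which the COOLAIR antisense RNAs are transcribed. It has 0 rows in the table and the use of strand is not stated, so sense and antisense reads cannot be told apart.

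FLC is known to be silenced through a pair of RY elements (CATGCA on either strand) in its first intron, which the B3-domain proteins VAL1 and VAL2 recognise. The pair is shown because it is a well known link between FLC and Polycomb recruitment. It was found in intron 1, 583 and 616 bases from the gene start and 33 bases apart, in the 119 bases at chr5:3178788-3178906 on the minus strand, where the capitals mark the RY elements.
FLC intron 1: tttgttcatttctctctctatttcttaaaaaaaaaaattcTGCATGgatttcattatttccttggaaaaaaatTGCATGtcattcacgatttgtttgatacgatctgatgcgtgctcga

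An RY element near this position was present in every FLC clade gene. Between bases 500 and 750 from the gene start, 6 of the 6 clade genes had at least 1 match and SVP had 0, where 7.44% of the 4070 genes of at least 4000 bases had one. That window was set after the matches were seen. The 6 genes are also relatives with partly alike sequences, so their matches are not independent and the 7.44% is no test of enrichment. The element lay 588 to 696 bases from the start in MAF1 to MAF5. It was intronic in all annotated transcripts of FLC and MAF3 and in some or most of those of MAF1 (6 of 11), MAF2 (4 of 5), MAF4 (5 of 6) and MAF5 (2 of 3). The 30 bases around each are printed with the element in capitals, using the FLC copy at base 616.
FLC (chr5:3178816-3178845, minus strand): ttggaaaaaaatTGCATGtcattcacgatt
MAF1 (chr1:28956165-28956194, plus strand): gaaatttaatatTGCATGttattcaagaaa
MAF2 (chr5:25982879-25982908, plus strand): aaattttaatatTGCATGtgattcaagaat
MAF3 (chr5:25987992-25988021, plus strand): aaaatttaatatTGCATGcgattcaagaat
MAF4 (chr5:25992785-25992814, plus strand): aaaatattatttCATGCActtggagagatt
MAF5 (chr5:25998079-25998108, plus strand): tctttttttcctTGCATGcacttcaagaga

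In FLC, MAF1, MAF2, MAF3 and MAF5 the printed element was followed after 3 more bases by the letters ttca, whereas in MAF4 it was read on the other strand and no ttca followed in the printed bases. MAF5 also had an overlapping match at base 590, read on the same strand as that of MAF4 and followed after 1 base by ttca. Over the whole gene, RY matches numbered 3 in FLC, 2 in MAF1, 1 in MAF2, 1 in MAF3, 2 in MAF4, 9 in MAF5 and 6 in SVP, with overlapping matches counted separately. That is 1.76 per kb in MAF5 and 1.41 per kb in SVP, beside a median of 0.452 and quartiles of 0.220 and 0.715 over the genes of at least 4000 bases. The presence of a match did not separate genes that were called from those that were not, since MAF1, MAF2 and MAF3 also held it. VAL1 was at 21.6, 15.8 and 18.5 FPKM in clf28swn7, emf1-2 and the libraries labelled ring1ab, against 14.3 FPKM in WT, and neither VAL1 nor VAL2 was called in any mutant.

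MAF2, MAF3, MAF4 and MAF5 stand in a row on the plus strand of chromosome 5 (25982254 to 26002619) and responded differently along it. Here the libraries labelled ring1ab had MAF4 and MAF5 higher, clf28swn7 had MAF5 alone past the threshold, and emf1-2 had none of the 4. From MAF2 to MAF5, the log2 fold changes against WT were 0.09, 0.06, 0.19 and 1.07 in clf28swn7. They were 0.50, 0.50, -0.25 and 0.19 in emf1-2, and -0.40, -0.12, 1.36 and 2.02 in the libraries labelled ring1ab.

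MAF5, whose RNA in contrast to FLC is known to be induced by cold, was at 24.4, 23.7 and 27.1 FPKM in the libraries labelled ring1ab. It was at 14.4, 10.9 and 12.2 FPKM in clf28swn7 and at 4.80, 7.86 and 6.62 FPKM in emf1-2, against 4.51, 5.66 and 6.15 FPKM in WT. The libraries labelled ring1ab and those of clf28swn7 lay above all others and did not overlap, whereas emf1-2 and WT overlapped. MAF5 rose 4.60-fold in the libraries labelled ring1ab (2.02, SE 0.16, adjusted p = 3.27e-06) and 2.30-fold in clf28swn7 (1.07, SE 0.16, adjusted p = 9.22e-05). The second call sits at the threshold and is lost without WT replicate 1 (0.96) or without clf28swn7 replicate 1 (0.97), which leaves 1 gene called higher there. In emf1-2 it stood at 0.19 (adjusted p = 0.289), with a range of 0.055 to 0.36 when 1 library was left out, the ends being without emf1-2 replicate 2 and without emf1-2 replicate 1. The libraries labelled ring1ab exceeded emf1-2 by 1.83 (adjusted p = 1.56e-06) and clf28swn7 by 0.95 (adjusted p = 2.74e-04). The last is below the fold threshold, and passes it with a pseudocount of 0.1 (1.004) or without clf28swn7 replicate 1 (1.05).

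MAF4, the next gene upstream of it, was at 10.6, 10.7 and 8.92 FPKM in the libraries labelled ring1ab. In clf28swn7 it was at 4.03, 3.92 and 3.80 FPKM, in emf1-2 at 1.92, 3.32 and 2.81 FPKM, and in WT at 3.03, 3.42 and 3.49 FPKM. The libraries labelled ring1ab stood apart from all others, with a 3.04-fold rise over WT (1.36, SE 0.13, adjusted p = 1.45e-05). All 3 clf28swn7 libraries were above WT, but by only 0.19 (adjusted p = 0.205), and emf1-2 differed by -0.25 (adjusted p = 0.104). The emf1-2 value was -0.088 without emf1-2 replicate 1 and -0.37 without emf1-2 replicate 2. The libraries labelled ring1ab exceeded clf28swn7 by 1.17 (adjusted p = 1.23e-05) and emf1-2 by 1.60 (adjusted p = 8.60e-07). Over the 12 libraries MAF4 and MAF5 had a Pearson r of 0.92 on the log2(FPKM + 1) scale, the highest among the 21 pairs of the group. These points share their libraries and follow the 4 genotypes.

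MAF2, known to prevent flowering after short cold spells, showed smaller differences. It was at 27.0, 34.0 and 25.4 FPKM in clf28swn7, 35.0, 48.6 and 33.6 FPKM in emf1-2, 27.4, 17.4 and 17.1 FPKM in the libraries labelled ring1ab and 28.0, 27.2 and 25.5 FPKM in WT. Only emf1-2 lay wholly above WT, by 0.50 (adjusted p = 0.0320), below the fold threshold. Differences from WT were 0.09 in clf28swn7 (95% interval -0.33 to 0.50) and -0.40 in the libraries labelled ring1ab (-0.81 to 0.02), where replicate 1 at 27.4 FPKM stood with WT and the other replicates did not.

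MAF3 was at 12.1, 11.4 and 11.8 FPKM in clf28swn7, 13.9, 16.9 and 18.5 FPKM in emf1-2, 11.4, 10.4 and 9.15 FPKM in the libraries labelled ring1ab and 9.96, 11.3 and 12.6 FPKM in WT. Again emf1-2 alone lay wholly above WT, by 0.50 (adjusted p = 0.00243). The intervals of the other differences were -0.20 to 0.31 in clf28swn7 and -0.38 to 0.13 in the libraries labelled ring1ab. Windows with an exact match elsewhere were counted, and matches with mismatches were not searched. Of 1177 exon windows of 50 bases in MAF3, 29 (2.46%) recurred elsewhere, 17 in the span of MAF2 and 12 in that of MAF1. MAF1 had 12 such windows of 4287, and FLC, MAF2, MAF4, MAF5 and SVP had 0.

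MAF1 lies alone on chromosome 1 (28955483 to 28960234, plus strand), and its splice forms are known to respond to ambient temperature. Its level was 22.1, 18.8 and 18.5 FPKM in clf28swn7, 31.7, 32.2 and 21.6 FPKM in emf1-2, 14.8, 15.2 and 13.0 FPKM in the libraries labelled ring1ab and 20.9, 22.6 and 25.3 FPKM in WT. All libraries labelled ring1ab were below all WT libraries, by -0.64 (SE 0.15, adjusted p = 0.00549), which is short of the fold threshold. In clf28swn7 it stood at -0.20 (adjusted p = 0.236) and in emf1-2 at 0.28 (adjusted p = 0.0986), where replicate 3 at 21.6 FPKM lay with WT. The values are per gene, so splice forms were not compared.

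Since MAF4 and MAF5 rose in the libraries labelled ring1ab and MAF1, MAF2 and MAF3 did not pass the thresholds, the sequences before their starts were set side by side by these groups, which were chosen with the levels known. The 250 bases before the gene start are printed for the 4 adjacent genes, with capitals marking the longest stretch shared by MAF1, MAF2 and MAF3 (18 bases) or by MAF4 and MAF5 (20 bases). Counted from the gene start, the first stretch begins at -185 in MAF2, -119 in MAF3 and -88 in MAF1, and the second at -143 in MAF4 and -112 in MAF5.
MAF2 (chr5:25982004-25982253, plus strand): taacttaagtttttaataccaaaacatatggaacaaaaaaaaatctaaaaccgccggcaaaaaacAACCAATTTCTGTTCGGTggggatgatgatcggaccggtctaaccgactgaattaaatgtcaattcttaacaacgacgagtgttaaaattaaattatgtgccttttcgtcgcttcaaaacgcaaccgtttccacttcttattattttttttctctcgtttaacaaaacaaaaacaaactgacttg
MAF3 (chr5:25987059-25987308, plus strand): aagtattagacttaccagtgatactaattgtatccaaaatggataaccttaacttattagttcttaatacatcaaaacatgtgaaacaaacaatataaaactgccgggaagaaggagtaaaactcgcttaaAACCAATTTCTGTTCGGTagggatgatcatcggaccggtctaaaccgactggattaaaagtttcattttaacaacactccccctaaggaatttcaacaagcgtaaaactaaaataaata
MAF4 (chr5:25991943-25992192, plus strand): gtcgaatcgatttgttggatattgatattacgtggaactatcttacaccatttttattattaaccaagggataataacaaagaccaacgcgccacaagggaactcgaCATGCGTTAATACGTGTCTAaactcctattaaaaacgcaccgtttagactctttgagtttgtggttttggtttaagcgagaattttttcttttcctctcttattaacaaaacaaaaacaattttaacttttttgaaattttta
MAF5 (chr5:25997254-25997503, plus strand): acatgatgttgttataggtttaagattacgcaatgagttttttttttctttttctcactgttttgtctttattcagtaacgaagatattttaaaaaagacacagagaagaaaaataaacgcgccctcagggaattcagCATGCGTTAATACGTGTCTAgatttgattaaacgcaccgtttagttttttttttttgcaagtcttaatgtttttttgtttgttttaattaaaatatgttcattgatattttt

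On either strand, the first stretch was found in 3 of 32834 promoters of this length (0.00914%) and the second in 2 (0.00609%), in both cases only in the MAF genes it was derived from. Stretches this long, picked because these genes share them, would rarely recur elsewhere, so the shares are no support for the grouping. The longest stretch that MAF1 and MAF2 shared ran to 35 bases. Across the groups, MAF2 and MAF4 shared 18 bases nearer to the start. FLC shared at most 10 bases with any other gene of the group and SVP at most 9. Of the named motifs, FLC had 1 G-box (CACGTG, both strands) at -146, present in 5.83% of all promoters, and MAF2 had 1 GAGA motif (GAGAGA or its complement) at -35, present in 20.9%. No gene of the group had an RY element (8.83% of promoters) or a CArG box (2.34%), the site that MADS-box proteins bind, in this window. Such matches describe letters and were not tested against the levels.

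SVP, on chromosome 2 (9579647 to 9583901, plus strand), was lower than WT in mutants where FLC was higher. It was at 14.8, 15.0 and 15.6 FPKM in clf28swn7, 10.6, 6.75 and 9.72 FPKM in emf1-2, 38.9, 42.9 and 48.9 FPKM in the libraries labelled ring1ab and 62.2, 57.3 and 62.5 FPKM in WT. No genotypes overlapped. SVP fell in clf28swn7 (log2 fold change -1.93, SE 0.14, adjusted p = 2.31e-07), so that WT was 4.01-fold higher, and in emf1-2 (-2.64, SE 0.14, adjusted p = 2.37e-08), with WT 6.73-fold higher. In the libraries labelled ring1ab the difference was -0.47 (SE 0.14, adjusted p = 0.0189), short of the fold threshold. These libraries exceeded clf28swn7 by 1.46 (adjusted p = 3.61e-06) and emf1-2 by 2.17 (adjusted p = 1.43e-07). SVP is known to be expressed in leaves. All 5 green shoot markers were called lower in clf28swn7 and emf1-2 and 0 of 5 in the libraries labelled ring1ab, and their part in the SVP result was not tested.

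**Figure D2:**
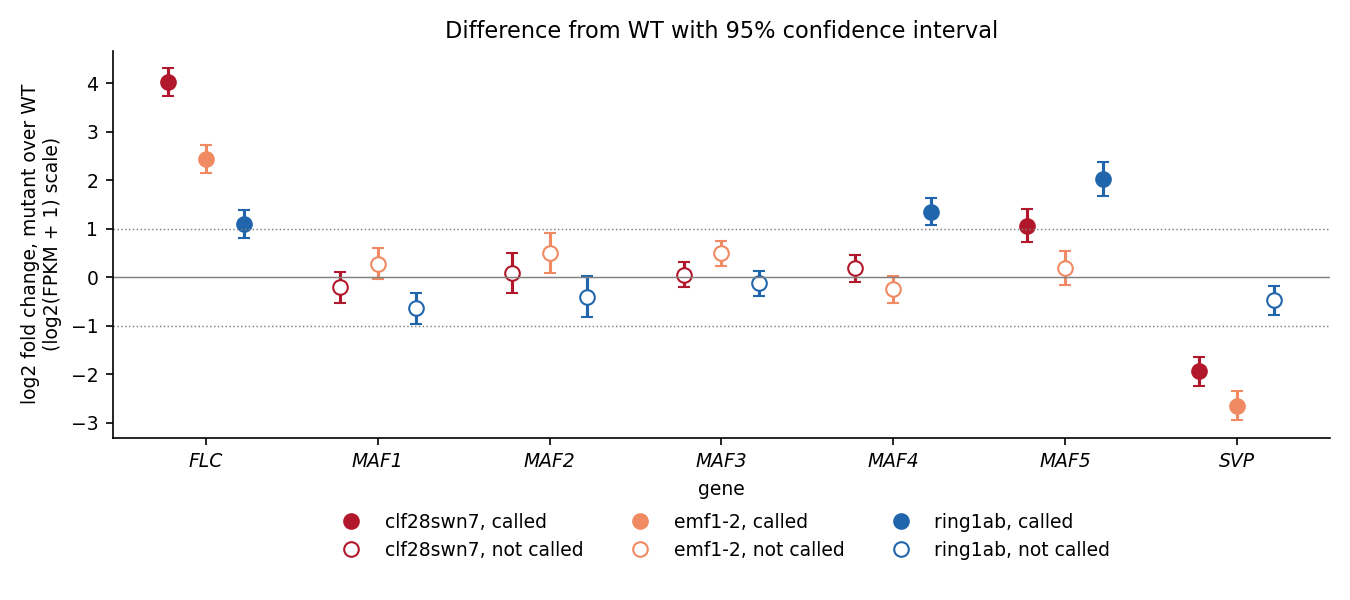
Log2 fold change of each gene in each mutant against WT with its 95% confidence interval (limma, log2(FPKM + 1) scale). Filled points were called, open points were not, and dotted lines mark the fold threshold. FLC is above the threshold in all 3 mutants (4.02, 2.44 and 1.10), MAF4 in ring1ab (1.36), MAF5 in ring1ab and clf28swn7 (2.02 and 1.07), and SVP is below it in clf28swn7 and emf1-2 (-1.93 and -2.64).

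Set directly against each other, the mutants gave calls for FLC, MAF4, MAF5 and SVP. In emf1-2 against clf28swn7, 0 of the 7 genes were called higher and 1 lower (FLC), where 5.54% and 8.35% of all tested genes were called. MAF5 differed by -0.88 (adjusted p = 6.92e-04) and SVP by -0.71 (adjusted p = 0.00109) without reaching the fold threshold. MAF4 was also lower, by -0.43 (adjusted p = 0.0130), short of the fold threshold. MAF1 (0.49, adjusted p = 0.0142) and MAF3 (0.44, adjusted p = 0.0073) differed in the other direction, also short of it. After median-of-ratios scaling MAF1 stood at 0.35 (adjusted p = 0.0505) and MAF3 at 0.31 (adjusted p = 0.0274). MAF5 reached the fold threshold without emf1-2 replicate 2 (-1.01). In the libraries labelled ring1ab against clf28swn7, 2 were called higher (MAF4 and SVP) and 1 lower (FLC), against 11.9% and 8.74% of all tested genes. In the same libraries against emf1-2, 3 were called higher (MAF4, MAF5 and SVP) and 1 lower (FLC), against 14.1% and 9.05%. Also there, MAF1 (-0.92), MAF2 (-0.90) and MAF3 (-0.62) were lower in every library labelled ring1ab than in every emf1-2 library. MAF1 passed the fold threshold without emf1-2 replicate 3 (-1.11), and MAF2 without ring1ab replicate 1 (-1.11). The share of all tested genes that lay apart in this way was not counted. Their median in this comparison was -0.12, and 0.004 after median-of-ratios scaling, where MAF1, MAF2 and MAF3 stood at -0.79, -0.76 and -0.49.

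The median over all genes in emf1-2 depends on the scaling. It was 0.19 against WT as deposited and 0.02 after median-of-ratios scaling, and the share of called genes that were higher was 52.5% and 42.1%. Rescaling to TPM went the other way, with a median of 0.25 and a share of 55.5%. After median-of-ratios scaling, FLC stood at 2.27, SVP at -2.83, MAF3 at 0.31, MAF1 at 0.087 and MAF5 at 0.018 in emf1-2 against WT. MAF2 stood at 0.30 (adjusted p = 0.18) and MAF4 at -0.40 (adjusted p = 0.011), and the calls of the 7 genes were the same. Against clf28swn7 the median was 0.12 before and -0.0012 after scaling, which likewise left the calls of the 7 genes as they were.

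The make-up of the clade changed with these levels. Summed over FLC and MAF1 to MAF5, the level was 143 ± 5.85 FPKM in clf28swn7, 115 ± 17.4 in emf1-2, 88.4 ± 7.65 in the libraries labelled ring1ab, against 73.0 ± 3.66 FPKM in WT (SD, n = 3 each). FLC supplied 46.3 ± 0.918% of this sum in clf28swn7, 19.0 ± 1.75% in emf1-2 and 8.98 ± 1.10% in the libraries labelled ring1ab, against 4.31 ± 0.311% in WT. MAF5 supplied 28.5 ± 4.02% in the libraries labelled ring1ab, against 7.43 ± 0.801% in WT, and MAF4 11.4 ± 0.842% against 4.54 ± 0.142%. In WT the largest shares were those of MAF2 (36.9%) and MAF1 (31.3%), and FLC had the smallest mean share, close to that of MAF4. In WT replicate 3, FLC at 3.52 FPKM was above MAF4 at 3.49 FPKM. Among all 7 genes FLC had the highest mean level in clf28swn7, rank 3 in emf1-2, and the lowest in the libraries labelled ring1ab as well as WT. SVP had the highest in these last 2 genotypes. For each unit of FLC there were 0.229 ± 0.0117 units of SVP in clf28swn7, 0.434 ± 0.166 in emf1-2 and 5.61 ± 1.41 in the libraries labelled ring1ab, against 19.4 ± 2.70 in WT. The SVP to FLC ratio in the libraries of clf28swn7 and emf1-2 was thus below 1 and in those of the other genotypes above 1. These sums, shares, ranks and ratios depend on the exon length used for each gene. The longest annotated transcript has 4099 bases in MAF1 and 3147 in MAF2, against 1042 in FLC. Antisense reads may also be part of the FLC values.

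**Figure D3:**
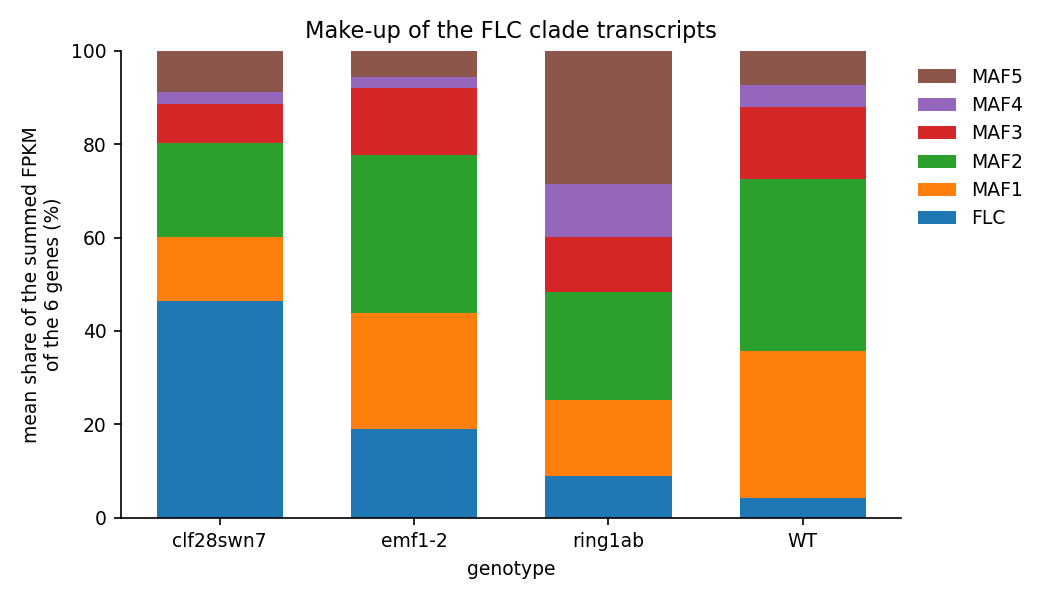
Mean share, in percent, of each of the 6 FLC clade genes in their summed FPKM, by genotype (3 libraries each). FLC takes 46.3% in clf28swn7 and 4.31% in WT, and MAF4 and MAF5 together fill the upper part of the ring1ab bar with 11.4% and 28.5%.

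The neighbours of these loci were read to see whether the differences stopped at the genes. Of the 16 genes that flank the 4 loci, 2 on each side, 4 were not tested because of low values. In clf28swn7, 0 neighbours were called higher and 2 lower, in emf1-2 1 higher and 3 lower, and in the libraries labelled ring1ab 0 in either direction. Over all tested genes the shares called higher and lower were 15.1% and 12.3%, 13.7% and 12.4%, and 7.16% and 1.03% in these comparisons, beside these counts among the 12 tested neighbours. AT5G10150, which lies 2489 bases from the 5′ end of FLC, was at 4.18 FPKM in clf28swn7 and 2.17 FPKM in emf1-2, against 18.8 FPKM in WT, and was called lower in both (-1.95 and -2.69). On the other side, AT5G10130 was called lower in emf1-2 (-2.57). It was at 0.95 in the libraries labelled ring1ab, and was called higher with a pseudocount of 0.1 (1.02), without WT replicate 3 or without ring1ab replicate 3 (1.003). Next to the MAF row, AT5G65030 was called higher in emf1-2 (1.79), and BST1, a gene of root hair growth that follows MAF5, lower in clf28swn7 (-1.06). The BST1 call is lost without WT replicate 1 (-0.98) or WT replicate 2 (-0.99). Before MAF1, AT1G77060 was called lower in emf1-2 (-1.47). In clf28swn7 it was at -0.98, short of the threshold, which it passed with a pseudocount of 0.1 (-1.02), after either rescaling (-1.04 and -1.02) and without clf28swn7 replicate 1 (-1.03) or 3 (-1.04). AT5G65040, before MAF2, was at -0.87 in clf28swn7 and passed without WT replicate 1 (-1.12). None of the tested neighbours of SVP was called in any mutant.

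**Figure D4:**
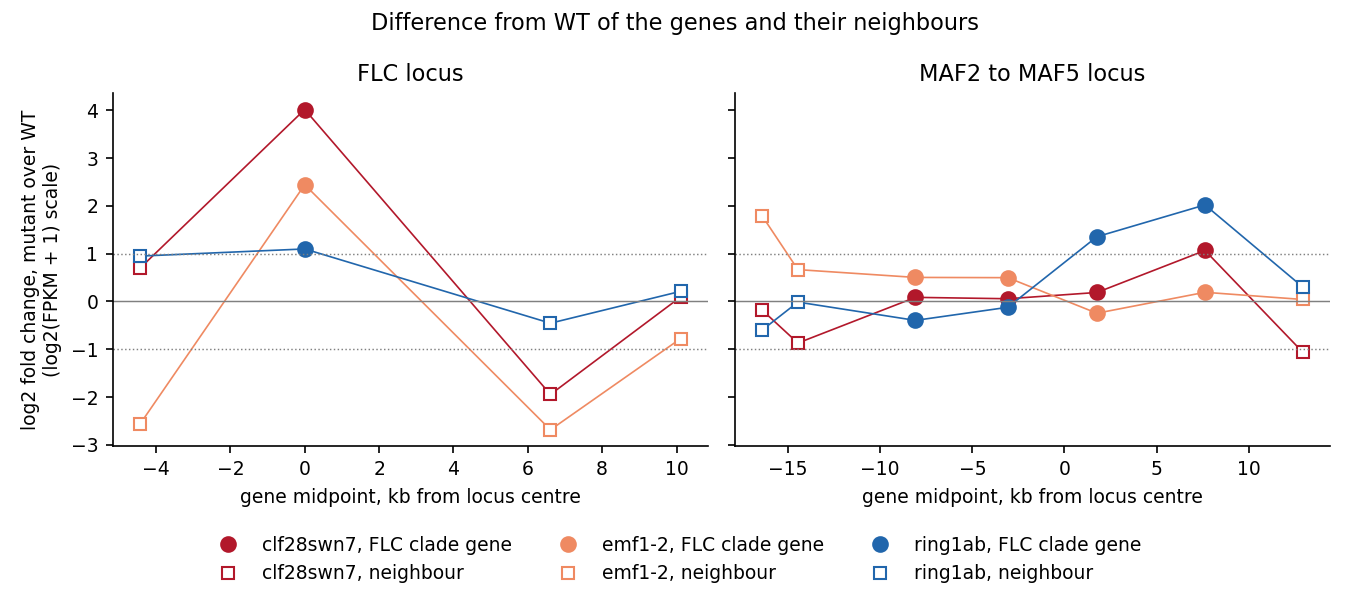
Log2 fold change against WT of the genes at the FLC locus and at the MAF2 to MAF5 locus, by distance of the gene midpoint from the locus centre in kb, along the chromosome. Filled circles are FLC clade genes, open squares their tested neighbours, and lines join the genes of a mutant. FLC stands above both flanks in clf28swn7 and emf1-2, and the ring1ab line climbs over the MAF row to 2.02 at MAF5 and is at 0.30 at the next gene.

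Of 24 known upstream regulators of FLC, all tested, 1, 3 and 1 were called higher in clf28swn7, emf1-2 and the libraries labelled ring1ab and 0 lower. Of all tested genes, 15.1%, 13.7% and 7.16% were called higher and 12.3%, 12.4% and 1.03% lower in these comparisons. VIN3, a plant homeodomain protein that is normally induced by long cold and helps to silence FLC, was called higher in all 3 mutants. It was at 1.68, 2.25 and 2.10 FPKM in clf28swn7, 2.31, 2.30 and 1.96 FPKM in emf1-2 and 1.95, 2.83 and 2.10 FPKM in the libraries labelled ring1ab, while WT listed it at 0 in 2 libraries and at 0.0487 FPKM in the other. The log2 fold changes were 1.56, 1.65 and 1.69 (adjusted p of 2.00e-07, 1.50e-07 and 7.45e-07). VIN3 and FLC, a silencer and its target, thus both rose in all 3 mutants. It was the only regulator called in clf28swn7 and in the libraries labelled ring1ab as the values were deposited. VEL1, a relative of VIN3, was below every WT library in all 3 mutants without reaching the fold threshold. It was at -0.95 in clf28swn7 (adjusted p = 4.08e-07), -0.69 in emf1-2 (adjusted p = 5.63e-06) and -0.56 in the libraries labelled ring1ab (adjusted p = 1.44e-04). After median-of-ratios scaling VEL1 was called lower in clf28swn7 (-1.02). In emf1-2, FVE (1.17), a repressor of FLC in the autonomous pathway, and PIE1 (1.04), a chromatin remodeller needed for FLC expression, were also called higher. Both calls in emf1-2 are lost after median-of-ratios scaling (0.97 and 0.86), and that of PIE1 without WT replicate 1 (0.96), while FY, at 0.93 in emf1-2, was called higher there after rescaling to TPM (1.001). The list medians were 0.18, 0.45 and -0.02 in clf28swn7, emf1-2 and the libraries labelled ring1ab, beside 0.07, 0.19 and 0.04 over all genes.

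Downstream of the repressors, several floral meristem genes rose in clf28swn7 and emf1-2, and FT was too low to be tested. Of 12 genes in the list, 9 were tested, and FT, its close relative TSF and LFY, a meristem identity gene, were below the minimum. FT, the mobile flowering signal, was at 1.05, 1.27 and 0.776 FPKM in clf28swn7, 0.300, 0.0620 and 0.344 FPKM in emf1-2, 0, 0.272 and 0 FPKM in the libraries labelled ring1ab and 0.0620, 0.230 and 0.316 FPKM in WT, so that its highest values were in clf28swn7, as were those of FLC. SOC1, the other main target, was not called. It averaged 9.34 ± 1.20 FPKM in clf28swn7, 12.3 ± 0.995 in emf1-2 and 12.2 ± 1.92 in the libraries labelled ring1ab, against 15.8 ± 2.91 in WT (SD, n = 3 each), with differences of -0.70 (adjusted p = 0.00108), -0.33 and -0.35.

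In clf28swn7, 5 of the 9 genes were called higher and 1 lower, where 15.1% and 12.3% of all tested genes were called. The largest on the log2(FPKM + 1) scale were AGL24 (3.81), a MADS-box activator of flowering, SEP3 (3.20) and AP1 (2.99), both floral organ and meristem identity genes. AP1 averaged 7.23 FPKM in clf28swn7 and 2.15 FPKM in emf1-2, against 0.0288 FPKM in WT. At such low WT values this scale understates the change, so it does not rank AP1 by its fold change. The others, named after their values were seen, were FUL (1.49), TFL1 (1.02) and, lower, CO (-1.03). The TFL1 call is lost without WT replicate 1 (0.79) or clf28swn7 replicate 1 (0.96), and that of CO without WT replicate 3 (-0.88) or clf28swn7 replicate 3 (-0.94). In emf1-2, SEP3 (4.16), AP1 (1.61) and AGL24 (1.40) were called higher and 0 lower, and in the libraries labelled ring1ab SEP3 alone (1.68). Of all tested genes 13.7% and 12.4% were called higher and lower in emf1-2, and 7.16% and 1.03% in the libraries labelled ring1ab. List medians were 1.02, -0.12 and 0.01, beside 0.07, 0.19 and 0.04 over all tested genes. All 5 floral organ markers were called higher in clf28swn7 and in emf1-2 and 4 of 5 in the libraries labelled ring1ab, and the part of floral organ tissue in the calls of this list was not tested. The AP3 marker call in the libraries labelled ring1ab (1.03) is lost without WT replicate 2 (0.97) or ring1ab replicate 3 (0.86), which leaves 3 of 5.

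Floral repressors outside the clade fell where they were called. These 7 genes of the AP2-like and RAV families repress FT or other flowering genes, and none was called higher in any mutant. In clf28swn7, TEM1 (-2.28), TEM2 (-2.26) and SNZ (-1.12) were called lower. In emf1-2, TEM2 (-2.56), SNZ (-2.47), TOE1 (-2.01), TOE3 (-1.13) and TEM1 (-1.04) were called lower. The TEM1 call is lost without WT replicate 2 (-0.996) and that of TOE3 without WT replicate 3 (-0.97). Called lower were thus 3 and 5 of 7 in clf28swn7 and emf1-2 and 0 in the libraries labelled ring1ab, where 12.3%, 12.4% and 1.03% of all tested genes were. The list medians were -0.73, -1.13 and 0.31, beside 0.07, 0.19 and 0.04 over all tested genes. Short of the fold threshold, SMZ (0.56), TEM2 (0.46), SNZ (0.42) and TOE2 (0.31) lay above all WT libraries in the libraries labelled ring1ab. TOE3 (-0.36), TEM1 (-0.11) and TOE1 (-0.10) had lower means there and overlapped WT. SMZ also lay above WT in emf1-2 (0.49). The share of all tested genes that lay apart in this way was not counted. SVP, TEM2 and SNZ were thus lower, and FLC higher, in both clf28swn7 and emf1-2. These comparisons share the WT libraries.

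**Figure D5:**
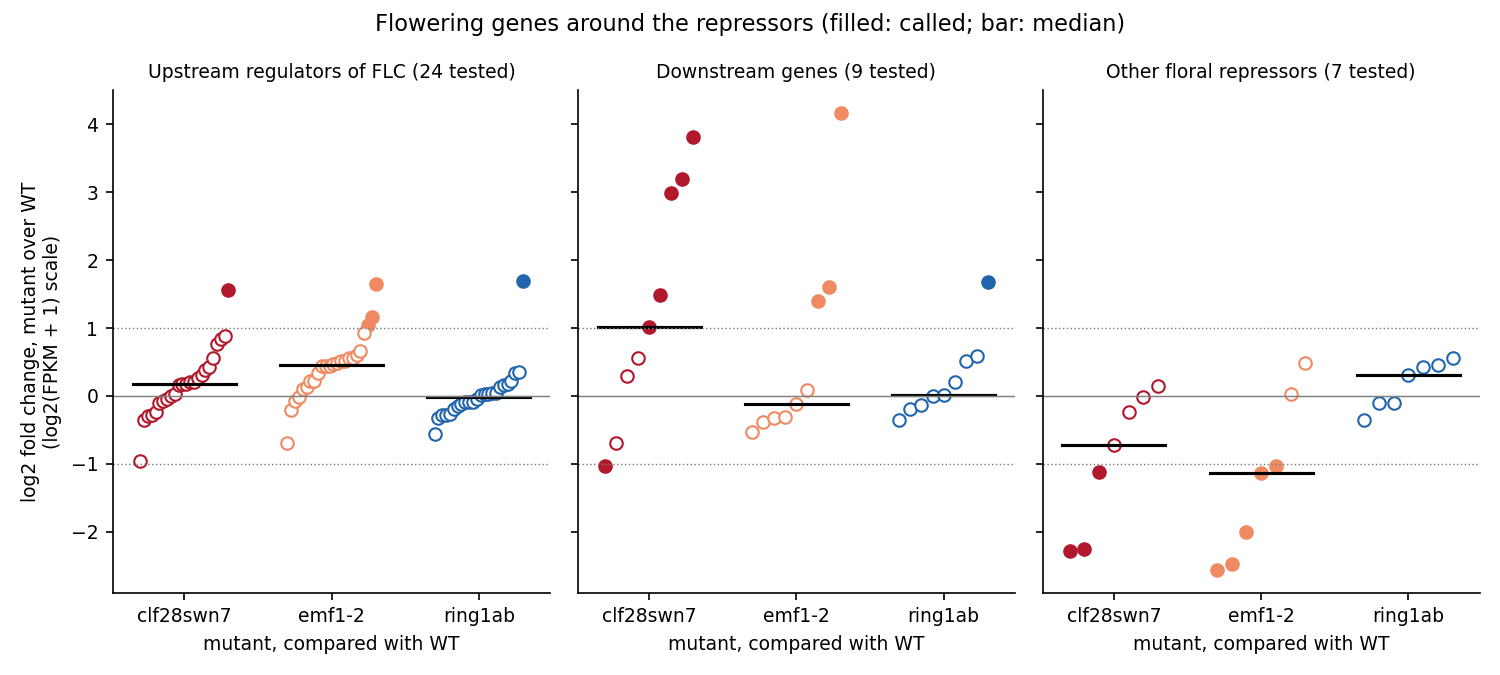
Log2 fold change against WT of each tested gene of the 3 lists (24 upstream regulators of FLC, 9 downstream genes and 7 other floral repressors), sorted within each mutant, with called genes filled and the list median as a bar. In the upstream list VIN3 is the highest gene in each mutant (1.56, 1.65 and 1.69), the downstream list has its highest values in clf28swn7 and emf1-2, and the other repressors have medians of -0.73 and -1.13 in these mutants and 0.31 in ring1ab.

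Genes whose levels ran most like those of each member over the 12 libraries were ranked by Pearson r on the log2(FPKM + 1) scale, among 9130 tested genes whose genotype means spanned at least 1 log2 unit. For FLC they were NSP5, KAT5 and ERD9 (r of 0.99 each), and for SVP they were EXPA1, an expansin, AT3G15570 and AT3G27770 (0.99 each). NSP5 was at 355, 195 and 131 FPKM in clf28swn7, emf1-2 and the libraries labelled ring1ab, against 74.4 FPKM in WT, the same order as FLC. For MAF4 they were AT5G09500 (0.98), AT1G10400 (0.97) and PKR2 (0.96), and for MAF5 AT4G33110, AT2G23330 and OCT2 (0.98 each). PKR2 was at 10.5 FPKM in the libraries labelled ring1ab, 0.419 in clf28swn7 and 0.00305 in emf1-2, against 0.00416 FPKM in WT. The flatter genes had weaker likenesses, with DOX1 (0.92), NAC074 and AT3G43740 (0.90 each) for MAF1, SNC1 (0.92), HTA4 and AT5G44010 (0.89 each) for MAF2, and AT2G38823, AT5G64230 (0.94 each) and GLIP1 (0.94) for MAF3. Within the group, FLC and SVP had an r of -0.81 and MAF1 and MAF4 of -0.84. Each r describes 12 libraries that fall into 4 genotypes.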

How the data were processed

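RNA-seq FPKM values of 12 seedling libraries, 3 per genotype, were analysed, with groups and replicate numbers taken from the sample labels. The authors extracted total RNA, mapped reads to TAIR10 with HISAT2 after FastQC, and deposited FPKM values per gene from StringTie and ballgown; tool versions, strand use and filters are not given in the sources used here. The labels call the RNA polyA, whereas the library kit is one for total RNA. Of 33602 genes, 32835 were matched to TAIR10.1 (RefSeq), whose chromosome 1 of 30427671 bases has the length of that in TAIR10.

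From the FPKM values, log2(FPKM + 1) was tested with limma 3.58.1 in R 4.3.3 for the 21227 genes that had 1 FPKM or more in 3 or more libraries. All genotypes entered one fit without a block. Called genes had an unadjusted p under 0.05 and a log2 fold change of 1 or more in either direction, the study's thresholds, and Benjamini-Hochberg adjusted p-values cover all tested genes. The fit was tested on simulated data. Depth was estimated from 8472 single-exon genes, whose low FPKM values are multiples of 1 fragment; a sum of FPKM (625465 to 681757) is not a depth, and fragment numbers are estimates.

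The 7 genes, the lists of 24, 12 and 7 flowering genes and the marker lists were chosen with earlier results of these data known. Named from each list were up to 3 called genes of the largest change per mutant, with FT and SOC1, and further the 2 neighbours on either side of each locus and the 3 genes most like each member. Motifs and shared stretches were searched in TAIR10.1. Alternatives were a pseudocount of 0.1, no filter, adjusted p in the call, the 2 genotypes alone, limma's trend and robust options, leaving out each library, rescaling to TPM, a replicate block, and median-of-ratios scaling. Python 3.11.15, numpy 2.4.6, pandas 2.3.3 and matplotlib 3.10.9 were used. ATAC-seq and ChIP-seq data were not analysed here.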

Additional observations from a re-analysis of the deposited data

How the results depend on the processing

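Of 1200 values of the 7 genes and the counts under other settings, 1183 were labelled the same. A small shift of a count, such as 2 to 3, was also labelled the same. Many log2 fold changes could not move. Leaving out a library of a genotype outside the comparison, or changing the filter or limma's options, returns the same value. The number 1183 is therefore no measure of how firm the results are. Differences near 0 changed sign: MAF2 in clf28swn7 against WT without clf28swn7 replicate 2 (-0.034), and MAF3 in the same comparison under median-of-ratios scaling (-0.0056) and without WT replicate 1 (-0.023). With 1 library left out, these 2 ranged over -0.034 to 0.17 and -0.023 to 0.13. MAF5 in clf28swn7 against WT ranged over 0.96 to 1.15, so 1 to 2 genes were called higher there. In emf1-2 against clf28swn7, 1 to 2 genes were called lower. In the libraries labelled ring1ab against clf28swn7, 2 to 3 were called higher, the additional gene being MAF5. In the libraries labelled ring1ab against emf1-2, 1 to 2 were called lower, and 2 after rescaling to TPM, where MAF1 reached -1.002. The cause was not tested.

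Replicate numbers did not pair the libraries: over 18 same-numbered pairs the correlation of deviations ran between -0.14 and 0.08, and 2 of 12 libraries correlated best with their own number. A replicate block changed no call of the 7 genes, with FLC at 4.02 in clf28swn7 against WT. In this balanced layout the block cannot move a log2 fold change, only its p-value. Estimated fragments per library were fewest for MAF4 in clf28swn7 (68 to 73), emf1-2 (48 to 79) and WT (72 to 87) and for FLC in WT (54 to 68). With 3 libraries per genotype, differences short of the threshold do not show equal levels.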
